A study of Mus musculus with 20 samples.

Results

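The luminal keratins Krt7, Krt8, Krt18 and Krt19 were followed in 20 mammary glands of transgenic mice, as 4 of the 18194 genes on the array that have a current symbol. They were picked by gene symbol, and where a gene had several probe sets the one with the greatest average signal was used. All 4 members passed the filter on low values, which left 12499 genes for testing. Keratins are the proteins of the intermediate filaments of epithelial cells, and each filament is built from pairs of an acidic type I keratin and a basic type II keratin. Krt18 and Krt19 are type I keratins, and Krt7 and Krt8 are type II keratins. In the mammary gland these keratins mark the luminal cells that line ducts and alveoli, while Krt5 and Krt14 mark the basal, myoepithelial layer.

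Every animal was a female FVB/N mouse heterozygous for the NRL-TGFa transgene of line 1372-1 TgN(Nrl-tgfalpha)29EPS, in which the Nrl (neu-related lipocalin) promoter drives transforming growth factor alpha, so all groups carried the transgene. At 8.5 weeks each mouse received a subcutaneous implant with 5 mg of tamoxifen, a modulator of the oestrogen receptor, or with carrier only (placebo). A single number 4 gland without a tumor was taken at 20.5 to 21 weeks, which the labels place 4 weeks after treatment ended, and tumors were then scored up to 2 years of age. The glands fell into 3 from tamoxifen animals that later had a tumor, 7 from tamoxifen animals without a tumor, 7 from placebo animals that later had a tumor and 3 from placebo animals without one. Each gland came from a different animal and was read on 1 array, so the number of arrays limits the precision. The whole gland was homogenized. In such tissue fewer cells of a type and less RNA per cell cannot be told apart. Values are the deposited log2 expression values, and a difference of 1 on this scale is a 2-fold difference. Glands are named by treatment and replicate number. Levels of different genes come from different probes and are not compared with each other.

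Placebo glands 7, 8 and 9, all from animals with later tumors, had the lowest values on the first principal component of all tested genes. They lay at -30.9, -41.1 and -14.6, and the next gland was placebo 4 at -7.19. Placebo 9 was thus nearer to placebo 4 than to placebo 7 and did not stand apart as the other 2 did. The differences of the luminal keratins in comparisons that use placebo 7, 8 and 9, and the counts for marker lists, are also given without them. That leaves 4 placebo glands with a later tumor.

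Krt7 lies on mouse chromosome 15 at 101412403 to 101427806 in GRCm38.p6, with Krt8 at 101996711 to 102004342 and Krt18 at 102028216 to 102032026 on the same chromosome. Krt8 and Krt18, a filament pair in simple epithelia, are only 23.9 kb apart, and Krt7 is 569 kb from Krt8. Krt19 lies on chromosome 11 at 100140810 to 100145926. The promoters of the 3 genes on chromosome 15 are shown, since the promoter source held these genes and not Krt19. Their windows run from 250 bases before the annotated start to 50 after it. Whether the promoters bear on the expression differences was not tested. They are from RefSeq, and capitals mark matches on either strand to the TATA box TATAAA, the related run ATATAA, the GC box, spelled CCGCCC, and the ETS core, spelled ACTTCC. Krt7 is chr15:101412153-101412452 on the plus strand, Krt8 is chr15:102004293-102004592 on the minus strand and Krt18 is chr15:102027966-102028265 on the plus strand.
Krt7: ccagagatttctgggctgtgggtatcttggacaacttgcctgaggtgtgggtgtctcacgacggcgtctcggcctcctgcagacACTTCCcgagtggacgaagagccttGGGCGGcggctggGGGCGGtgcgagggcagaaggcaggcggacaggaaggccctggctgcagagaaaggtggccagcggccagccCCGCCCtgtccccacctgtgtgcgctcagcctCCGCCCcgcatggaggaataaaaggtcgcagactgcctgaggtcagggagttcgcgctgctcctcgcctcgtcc
Krt8: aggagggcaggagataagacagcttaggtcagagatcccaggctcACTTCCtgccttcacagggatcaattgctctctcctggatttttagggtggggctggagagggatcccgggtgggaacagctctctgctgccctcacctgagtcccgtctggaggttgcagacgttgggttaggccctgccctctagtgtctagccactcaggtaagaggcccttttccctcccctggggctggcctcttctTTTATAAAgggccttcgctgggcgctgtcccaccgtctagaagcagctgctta
Krt18: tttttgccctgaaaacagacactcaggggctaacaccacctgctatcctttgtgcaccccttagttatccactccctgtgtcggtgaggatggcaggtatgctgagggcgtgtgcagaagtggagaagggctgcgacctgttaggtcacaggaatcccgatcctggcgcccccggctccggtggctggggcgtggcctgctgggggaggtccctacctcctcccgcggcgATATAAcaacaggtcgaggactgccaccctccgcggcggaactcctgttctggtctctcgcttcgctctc
The windows shared few of the letters searched. Krt7 held CCGCCC at 4 places and Krt8 and Krt18 held it at none, where 35.7% of all 32851 promoter windows hold it. TATAAA was found in Krt8 alone, on both strands in 1 overlapping run next to the annotated start (13.6% of windows), and ATATAA was found in Krt18 alone, at -20 (9.82% of windows). ACTTCC was in Krt7 and Krt8 (23.8% of windows). TGANTCA, an AP-1 site, and TTCNNNGAA, a STAT site, were in none of the 3 windows (7.81% and 8.30% of all windows). The GC content was 66.3% for Krt7, 58.0% for Krt8 and 61.3% for Krt18.

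Krt8, the type II keratin of simple epithelia, was highest in placebo glands from animals with later tumors. Its log2 values were 10.38, 10.28 and 10.98 in tamoxifen glands with a later tumor. Tamoxifen glands without a tumor had a lowest value of 9.60, a median of 10.40 and a highest value of 11.15. Placebo glands with a later tumor had a lowest value of 10.53, a median of 11.24 and a highest value of 12.01, against 10.43, 9.07 and 10.30 in placebo glands without one. All 7 placebo glands with a later tumor therefore lay above all 3 placebo glands without one, while the tamoxifen groups overlapped each other.

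Krt18, the type I partner of Krt8, had the same order of groups. It measured 10.45, 10.62 and 11.06 in tamoxifen glands with a later tumor. Tamoxifen glands without a tumor ran between 9.83 and 11.12 with a median of 10.40 (log2). Placebo glands with a later tumor ran between 10.75 and 11.60 with a median of 11.33, against 10.70, 9.44 and 10.56 in placebo glands without one. The placebo groups again did not overlap, though the lowest placebo gland with a later tumor, placebo 4, was close to the highest without one.

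Krt19, a small type I keratin without the usual tail domain, differed in its order. Its log2 values were 9.89, 10.15 and 10.75 in tamoxifen glands with a later tumor, and those without a tumor ran between 8.77 and 10.18 with a median of 9.67. Placebo glands with a later tumor ran between 9.80 and 11.26 with a median of 10.92, against 10.57, 9.26 and 10.13 in placebo glands without one. Tamoxifen glands without a tumor had the lowest mean for this gene, and placebo glands without a tumor the lowest mean for the other 3.

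Krt7, a type II keratin of ducts and glands, had the narrowest range of the 4 on the log2 scale. It measured 8.17, 8.24 and 8.60 in tamoxifen glands with a later tumor, and between 7.95 and 8.93 with a median of 8.46 in those without a tumor. Placebo glands with a later tumor ran between 8.29 and 8.89 with a median of 8.76, against 8.47, 7.51 and 8.26 in placebo glands without one. The highest gland of all was tamoxifen 5, which had no tumor, and all groups overlapped.

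Placebo glands with a later tumor had the highest mean for each of the 4 genes. For every gene the ranges of neighbouring groups in the order of means overlapped, so no neighbours were separate. Single glands kept similar ranks: placebo 8 was the highest gland for Krt8, Krt18 and Krt19, and placebo 5, which had no tumor, was the lowest for Krt7, Krt8 and Krt18. The lowest Krt19 value was in tamoxifen 4.

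**Figure D1:**
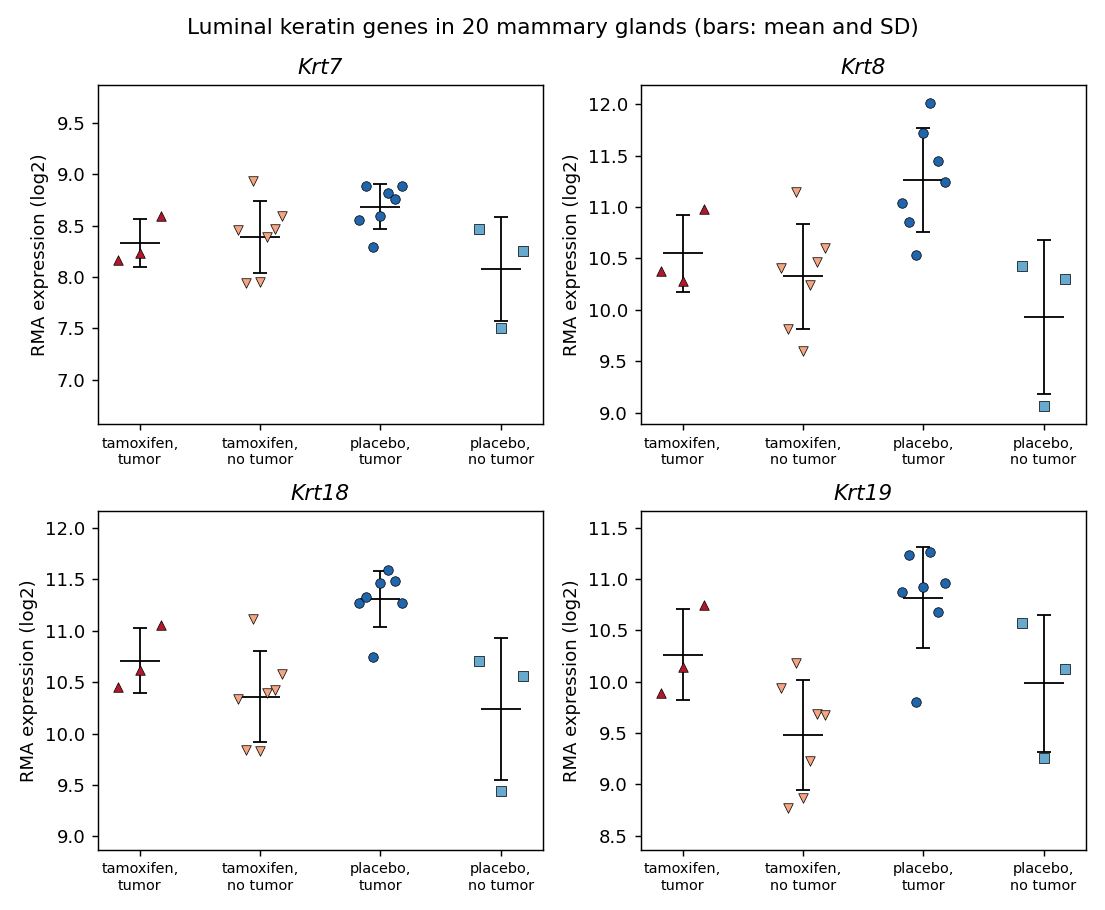
Log2 expression of Krt7, Krt8, Krt18 and Krt19 (y axis) in 20 glands by treatment and later outcome (x axis), 1 point per gland, with bars for the mean and SD of each group. Placebo glands with a later tumor have the highest mean in each panel, and for Krt8 and Krt18 all 7 lie above the 3 placebo glands without a tumor.

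The first comparison was by outcome: it set the 10 glands of animals with a later tumor against the 10 glands of animals without one, over both treatments. Krt19 averaged 10.65 ± 0.53 with a later tumor and 9.63 ± 0.59 without (SD, n = 10 each, log2). Krt18 averaged 11.13 ± 0.40 with a later tumor and 10.32 ± 0.49 without. Krt8 averaged 11.05 ± 0.57 and Krt7 8.58 ± 0.27 with a later tumor, against 10.21 ± 0.58 and 8.30 ± 0.40 without (SD, n = 10 each). All 10 glands with a later tumor were above the no-tumor median for Krt18 and Krt19, 9 were for Krt8 and 7 for Krt7, and the groups overlapped for each gene.

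No luminal keratin passed the adjusted threshold of 0.05 for later outcome. limma called 29 of 12499 genes, or 0.232%, in either direction. Krt19 differed by 1.02 (SE 0.23, 2.03-fold, adjusted p = 0.0616), with a 95% interval of 0.54 to 1.51. Krt18 differed by 0.81 (SE 0.19, adjusted p = 0.062) and Krt8 by 0.84 (SE 0.24, adjusted p = 0.107). Krt7 differed by 0.28 (SE 0.14, adjusted p = 0.33), with an interval of -0.01 to 0.58. At an unadjusted p under 0.05, 3 of the 4 members were higher with a later tumor, where 6.79% of all genes were. Leaving out 1 animal at a time gave 0.71 to 0.90 for Krt18 and 0.93 to 1.13 for Krt19. Both passed without placebo 3, tamoxifen 1 or tamoxifen 2, and Krt18 also passed without tamoxifen 5 (limma adjusted p of 0.0249 to 0.0488). With placebo 7, 8 and 9 left out the differences were 0.89 for Krt19, 0.64 for Krt18, 0.55 for Krt8 and 0.22 for Krt7 (limma adjusted p of 0.275 to 0.747).

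The second comparison set tamoxifen against placebo glands, with both outcomes in each arm. Krt19 averaged 9.71 ± 0.62 in tamoxifen glands and 10.57 ± 0.65 in placebo glands (SD, n = 10 each). Its log2 difference was -0.85 (SE 0.26, limma adjusted p = 0.176), with a 95% interval of -1.40 to -0.31. Krt18 averaged 10.46 ± 0.43 in tamoxifen glands and 10.99 ± 0.65 in placebo glands, a difference of -0.52 (SE 0.23, adjusted p = 0.311). All 10 tamoxifen glands were below the placebo median for both genes. Krt8 averaged 10.39 ± 0.47 in tamoxifen glands and 10.86 ± 0.84 in placebo glands, a difference of -0.47 (adjusted p = 0.462). Krt7 averaged 8.37 ± 0.31 in tamoxifen glands and 8.50 ± 0.42 in placebo glands, a difference of -0.13 (adjusted p = 0.739). None of the 4 members was called by limma, and 1 of all genes tested was (0.008%). At an unadjusted p under 0.05, 2 members were lower in tamoxifen glands, against 6.96% of all genes. The differences were -0.69 for Krt19, -0.30 for Krt18, -0.10 for Krt8 and -0.04 for Krt7 without placebo 7, 8 and 9. Krt7 was also -0.24 without placebo 5 and -0.08 without tamoxifen 4 or tamoxifen 6. Treatment and outcome were unevenly combined, with 7 of 10 tamoxifen animals free of tumors and 7 of 10 placebo animals with one. With outcome as a covariate, the tamoxifen differences were -0.53 for Krt19, -0.24 for Krt18, -0.16 for Krt8 and -0.02 for Krt7. With treatment as a covariate, the outcome differences were 0.81 for Krt19, 0.71 for Krt18, 0.78 for Krt8 and 0.28 for Krt7. In neither of these fits with a covariate did limma call any gene, so no member passed.

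Tamoxifen animals without a tumor were then set against placebo animals with one, 7 against 7, and here 3 of the 4 luminal keratins were lower. These groups differ in both treatment and outcome, so the 2 cannot be told apart in this comparison. A fall or rise in it means a lower or higher value in the tamoxifen glands without a tumor. Krt19 averaged 9.48 ± 0.54 in tamoxifen glands without a tumor and 10.82 ± 0.49 in placebo glands with a later tumor (SD, n = 7 each). That is a fall of 2.53-fold (log2 difference -1.34, SE 0.26, limma adjusted p = 0.00701). Krt18 averaged 10.36 ± 0.44 in those tamoxifen glands and 11.31 ± 0.28 in those placebo glands, a fall of 1.93-fold (log2 difference -0.95, SE 0.21, adjusted p = 0.0139). Krt8 averaged 10.33 ± 0.51 in the tamoxifen glands and 11.26 ± 0.51 in the placebo glands, a fall of 1.91-fold (log2 difference -0.94, SE 0.26, adjusted p = 0.0472). Krt7 averaged 8.39 ± 0.35 in the tamoxifen glands and 8.69 ± 0.22 in the placebo glands and did not pass (log2 difference -0.30, SE 0.16, adjusted p = 0.305). Over all genes limma called 300 as lower, or 2.4%, in this comparison, and 579 in either direction, or 4.63%.

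All 7 tamoxifen glands without a tumor were below the median of placebo glands with a later tumor for Krt8, Krt18 and Krt19, and 6 of 7 were for Krt7. Of those 7, 6 lay below every placebo gland with a later tumor for Krt18, and 5 did for Krt8 and for Krt19, so each gene still overlapped. The 3 probe sets of Krt8 ran together over the glands (Pearson r of 0.994 to 0.997) and differed by -0.94, -0.97 and -0.97. With adjustment over all 45101 probe sets their adjusted p were 0.0705, 0.0828 and 0.0509 in limma, so none passed there, while Krt18 and Krt19 did (0.0232 and 0.0126).

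None of these calls held without placebo 7, 8 and 9, which leaves 7 against 4 glands, though the comparison keeps its name below. The part of the smaller group and the part of the values of those glands in this loss were not told apart. Placebo 7, 8 and 9 had the 3 highest values of Krt8 and of Krt18 among all 20 glands. Leaving them out was therefore bound to make the differences of these 2 genes smaller. Without those 3 glands Krt19 differed by -1.24 (limma adjusted p = 0.0799), Krt18 by -0.80 (0.163) and Krt8 by -0.59 (0.41), and none passed, with 141 genes called in all. With 1 animal left out at a time, Krt18 and Krt19 passed in all 20 fits. Krt8 passed in 7 of 20 and missed the threshold without placebo 6, 7, 8, 9 or 10 or without tamoxifen 1, 2, 3, 4, 6, 7, 9 or 10 (differences of -0.98 to -0.81, limma adjusted p of 0.0525 to 0.104). Within replicate numbers 6 to 10, which hold placebo 7 to 9, Krt19 differed by -1.59 and Krt18 by -1.15 (adjusted p of 0.0276 and 0.0432). Within numbers 1 to 5 they differed by -1.01 and -0.68 and did not pass (0.303 and 0.306). Numbers 1 to 5 hold only placebo 1, 2 and 4 and tamoxifen 3, 4 and 5 of these groups. Numbers 6 to 10 hold placebo 7, 8, 9 and 10 and tamoxifen 6, 7, 8 and 9.

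**Figure D2:**
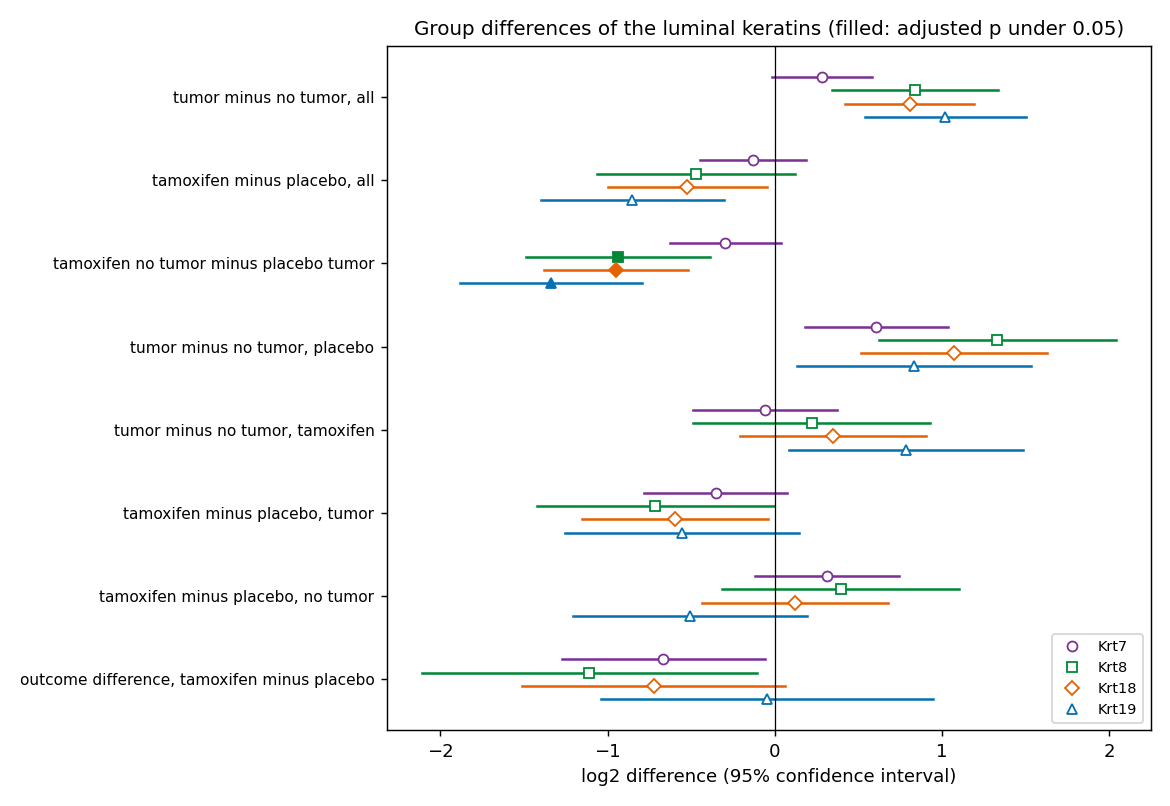
Log2 difference (x axis) of each luminal keratin in 8 comparisons (y axis) with its 95% confidence interval from limma, where filled markers have an adjusted p under 0.05. Only Krt8, Krt18 and Krt19 in tamoxifen glands without a tumor against placebo glands with a later tumor are filled, at -0.94, -0.95 and -1.34.

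Each of these comparisons uses some of the same animals, and in the 4-group model treatment and outcome were also set apart. Among placebo animals, a later tumor went with higher values of all 4 keratins, and none passed after adjustment. Krt8 differed by 1.33 (SE 0.34) and Krt18 by 1.07 (SE 0.27), both with a limma adjusted p of 0.15. Krt19 differed by 0.83 (adjusted p = 0.276) and Krt7 by 0.61 (adjusted p = 0.217). The 7 glands with a later tumor lay above all 3 without one for Krt8 and Krt18, where 2.05% of genes did so. limma called 1 gene of all tested (0.008%), and at an unadjusted p under 0.05 all 4 members were higher, against 6.29% of genes. These values rest on 3 placebo glands without a tumor, 1 of which is placebo 5. Without placebo 5 Krt7 differed by 0.32, Krt8 by 0.90, Krt18 by 0.68 and Krt19 by 0.47. The 4 differences were 0.58 for Krt7, 0.98 for Krt8, 0.92 for Krt18 and 0.73 for Krt19 without placebo 7, 8 and 9.

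Among tamoxifen animals the outcome differences were 0.79 for Krt19, 0.35 for Krt18, 0.22 for Krt8 and -0.06 for Krt7. None passed (limma adjusted p of 1.000 for each), and 0.008% of genes were called. Without tamoxifen 10, 1 of the 3 glands with a later tumor, Krt19 differed by 0.54, Krt18 by 0.18, Krt8 by 0.0057 and Krt7 by -0.19. With any 1 animal left out, Krt8 ran up to 0.36 and Krt7 up to 0.03, and the sign of Krt7 turned without tamoxifen 1 or tamoxifen 5. At an unadjusted p under 0.05, Krt19 alone of the members was higher (0.632% of genes). The test of the difference between these outcome effects, tamoxifen minus placebo, called no gene by limma (0%), while 565 genes had an unadjusted p under 0.05. It gave -1.11 for Krt8, with a 95% interval of -2.11 to -0.11, and -0.67 for Krt7, with an interval of -1.27 to -0.06. For Krt18 it gave -0.72 (-1.51 to 0.06) and for Krt19 -0.05 (-1.04 to 0.94). The limma adjusted p was 0.938 for Krt7, Krt8 and Krt18 and 0.994 for Krt19, and 2 members had an unadjusted p under 0.05 on the lower side, against 2.7% of genes on that side. The sign for Krt19 changed in 7 of 20 fits with 1 animal left out, which gave -0.34 to 0.32. Without placebo 5 the values were -0.68 for Krt8, -0.38 for Krt7 and -0.33 for Krt18. With placebo 7, 8 and 9 left out the values were -0.76 for Krt8, -0.64 for Krt7, -0.57 for Krt18 and 0.05 for Krt19.

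Within 1 outcome, tamoxifen glands were set against placebo glands. Among animals with later tumors the differences were -0.72 for Krt8, -0.60 for Krt18, -0.55 for Krt19 and -0.35 for Krt7, with limma adjusted p of 0.703 to 0.728. limma called no gene there (0%), while 875 had an unadjusted p under 0.05, and by that rule Krt8 and Krt18 were lower, as were 4.4% of genes. Without placebo 7, 8 and 9 they were -0.37 for Krt8, -0.45 for Krt18, -0.45 for Krt19 and -0.32 for Krt7, and Krt19 was -0.37 without tamoxifen 1. Among animals without tumors the differences were -0.51 for Krt19, 0.39 for Krt8, 0.31 for Krt7 and 0.12 for Krt18. None of these passed (limma adjusted p = 0.999 for each), 0.064% of genes were called, and no member had an unadjusted p under 0.05, where 5.26% of genes did in either direction. Without placebo 5 the signs of Krt8 and Krt18 turned, to -0.04 and -0.27, and Krt18 also turned without tamoxifen 5. Krt7 was 0.03 and Krt19 -0.87 without placebo 5. Without placebo 3 the differences were -0.21 for Krt19, 0.64 for Krt8, 0.51 for Krt7 and 0.36 for Krt18.

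The 4 keratins varied together from gland to gland. Over 20 glands Krt8 and Krt18 had a Pearson r of 0.960 and a Spearman rho of 0.922. Krt18 and Krt19 followed with r = 0.907 (rho 0.895), Krt7 and Krt18 with r = 0.891 (rho 0.805), and Krt7 and Krt8 with r = 0.876 (rho 0.874). Krt8 and Krt19 had r = 0.83 (rho 0.820), and Krt7 and Krt19 had r = 0.765 (rho 0.749). The permutation p of r was 1e-05 for 5 of the 6 pairs, the smallest that the resamples can give, and 0.00012 for Krt7 and Krt19. Adjusted over the 6 pairs they were 1.2e-05 and 0.00012, and for rho the adjusted p were 2e-05 to 0.00025. Without the 2 glands farthest from the median r ran between 0.726 and 0.948, and without placebo 7, 8 and 9 between 0.735 and 0.957.

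The pairs also held within parts of the data. After each group's mean was taken off, r ran between 0.823 and 0.945, with the highest for Krt7 and Krt18. Within replicate numbers 1 to 5 it ran between 0.740 and 0.954, and within 6 to 10 between 0.821 and 0.980. Both genes of a pair were read from the same RNA on the same array.

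The size of the group difference nevertheless differed between the members. Differences of 2 members within a gland were compared between groups by permutation, for 6 pairs in 3 comparisons, with adjustment over the 18 tests. Krt7 minus Krt18 lay between -2.19 and -1.87 in tamoxifen glands without a tumor and between -2.87 and -2.39 in placebo glands with a later tumor, so the groups did not overlap. This is 1 of the 6 pairs, and how many other pairs of genes are separate in this way was not counted. Of single genes, 0.32% were higher and 1.13% lower without overlap between these groups. The level of Krt7 minus Krt18 depends on the probes, and whether the probes of the 2 genes respond with the same slope was not tested. The shift was 0.65 (mean -1.97 ± 0.11 against -2.62 ± 0.19, SD, n = 7 each, exact permutation p = 0.000583, adjusted p = 0.00262), so Krt18 differed by more than Krt7. Without placebo 7, 8 and 9 it was 0.53 (exact permutation adjusted p = 0.0182). For later outcome Krt7 also moved less than Krt18, by -0.52 (permutation adjusted p = 0.00036), than Krt8, by -0.56 (0.00216), and than Krt19, by -0.74 (0.00266). All 3 of these held without placebo 7, 8 and 9, at -0.42, -0.33 and -0.67 (permutation adjusted p of 0.0037 to 0.0182).

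For Krt8 and Krt18 no difference in size was detected with all glands. Krt8 minus Krt18 averaged -0.08 ± 0.26 in glands with a later tumor and -0.11 ± 0.16 in glands without (SD, n = 10 each), a shift of 0.03 (permutation adjusted p = 0.778). Between tamoxifen glands without a tumor and placebo glands with a later tumor the shift was 0.01 (exact permutation adjusted p = 0.924). The spread over glands was wider in placebo glands with a later tumor, where the difference ran between -0.47 in placebo 2 and 0.41 in placebo 8. The shift between tamoxifen and placebo glands was 0.19 without placebo 7, 8 and 9, and passed (permutation adjusted p = 0.0267).

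Krt19 differed by more than Krt18 and Krt7 between tamoxifen and placebo glands. Krt18 minus Krt19 averaged 0.75 ± 0.30 in tamoxifen glands and 0.42 ± 0.28 in placebo glands (SD, n = 10 each), a shift of 0.33 (permutation adjusted p = 0.048). Krt7 minus Krt19 shifted by 0.72 (permutation adjusted p = 0.00408), and Krt8 minus Krt19 by 0.38, which did not pass (0.0734). For later outcome, Krt18 and Krt19 differed by less than their spread (shift -0.21, permutation adjusted p = 0.197). The shift of Krt18 minus Krt19 with tamoxifen was 0.39 without placebo 7, 8 and 9 (permutation adjusted p = 0.0348), that of Krt7 minus Krt19 was 0.65 (0.0188) and that of Krt8 minus Krt19 was 0.59 (0.0182).

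**Figure D3:**
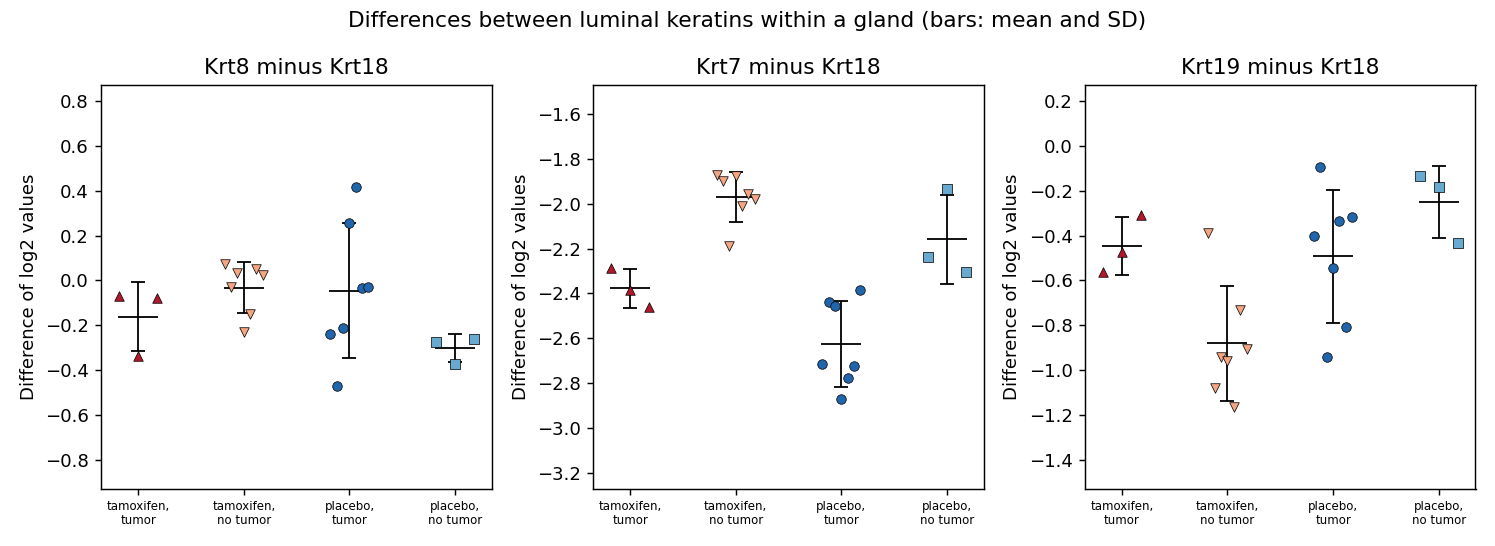
Difference of 2 luminal keratins within a gland (y axis, log2) for Krt8 minus Krt18, Krt7 minus Krt18 and Krt19 minus Krt18 by treatment and later outcome (x axis), 1 point per gland, with bars for the mean and SD. Krt7 minus Krt18 does not overlap between tamoxifen glands without a tumor (-2.19 to -1.87) and placebo glands with a later tumor (-2.87 to -2.39). How many other pairs of genes are separate in this way was not counted.

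Other epithelial genes moved beside the luminal keratins. Of 16 tested epithelial genes that are not keratins, 9 fell in tamoxifen glands without a tumor against placebo glands with a later tumor, and none rose. Over all genes 2.4% fell and 2.23% rose in this comparison. Epcam, an adhesion protein of epithelial cells, fell by 1.31 on the log2 scale (limma adjusted p = 0.00388). Esrp1, a splicing regulator of epithelial cells, fell by 1.62 (0.00729), and Cldn7, a claudin of tight junctions, fell by 1.46 (0.0153). St14, a membrane serine protease, fell by 0.93 (0.00575), and Cdh1, E-cadherin, fell by 1.21 (0.0174). The median of the list was -0.75, against 0.01 over all genes. Without placebo 7, 8 and 9, 6 of the 16 fell, Cdh1 no longer passed (-0.70, 0.101) and the median was -0.29. For later outcome none of the 16 passed by limma, with a median of 0.58 against -0.01 over all genes. At an unadjusted p under 0.05, 12 were higher, where 6.79% of all genes were. The median by outcome was 0.24 without placebo 7, 8 and 9.

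The mean of these 16 genes, each centred over the glands, was also highest in placebo glands with a later tumor. It ran between -0.14 and -0.05 in tamoxifen glands with a later tumor and between -0.50 and 0.06 in those without a tumor. In placebo glands it ran between 0.04 and 1.13 with a later tumor and between -0.54 and -0.13 without. With this mean as a covariate, the difference between tamoxifen glands without a tumor and placebo glands with a later tumor was -0.03 for Krt8 (SE 0.25), -0.40 for Krt18 (SE 0.24), -0.76 for Krt19 (SE 0.33) and -0.01 for Krt7 (SE 0.21). None passed there (limma adjusted p of 0.656 to 0.995), and 11 genes were called in all. For later outcome the same covariate left 0.55 for Krt19, 0.32 for Krt18, 0.11 for Krt8 and 0.01 for Krt7 (limma adjusted p of 0.905 to 0.995).

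**Figure D4:**
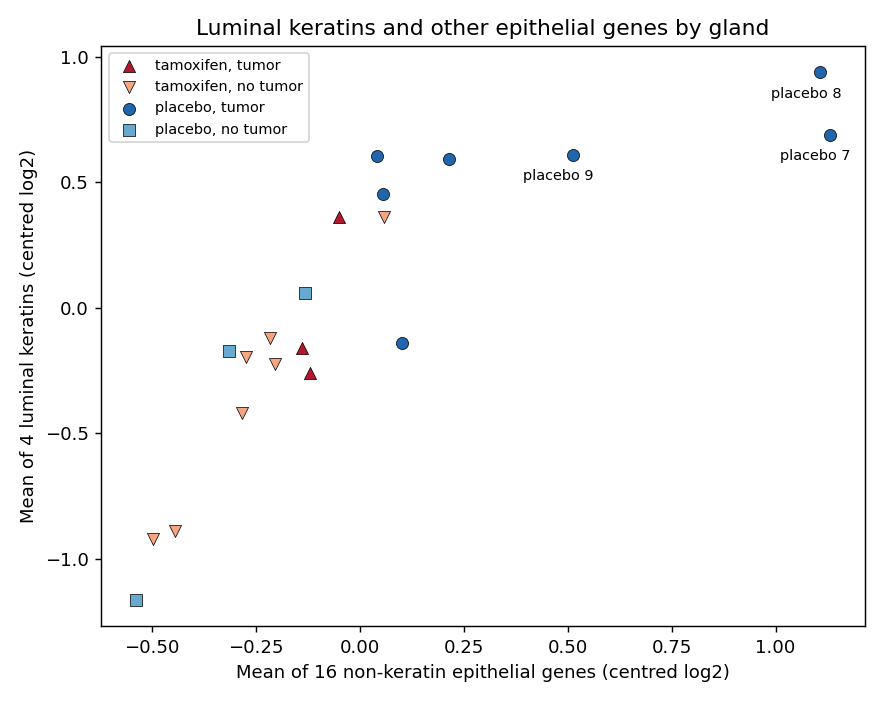
Mean of the 4 luminal keratins (y axis) against the mean of 16 other epithelial genes (x axis), each gene centred over the 20 glands on the log2 scale, with 1 point per gland and symbols for the 4 groups. Placebo 7 and 8 have the highest epithelial means and placebo 5 the lowest value of both.

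**Figure D5:**
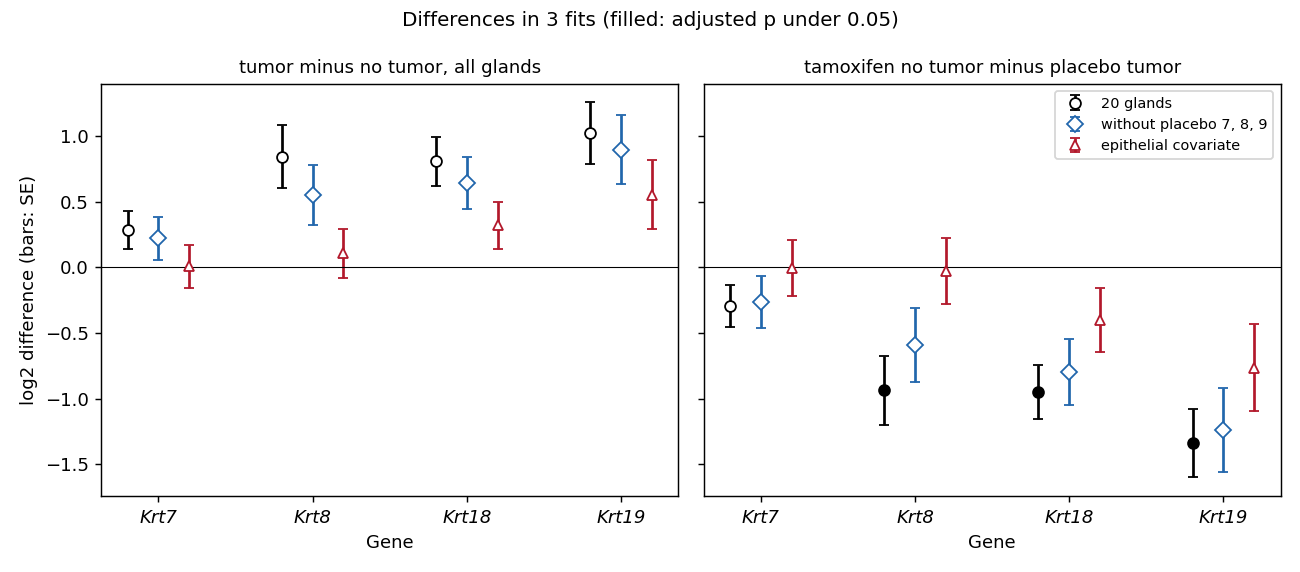
Log2 difference of each luminal keratin (y axis, bars show the SE) with all 20 glands, without placebo 7, 8 and 9, and with the epithelial mean as a covariate, for later outcome (left) and for tamoxifen without a tumor against placebo with a later tumor (right). Filled markers have a limma adjusted p under 0.05, and for Krt8 on the right the 3 values are -0.94, -0.59 and -0.03.

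Genes of the luminal cell types were read next to the keratins. Of 8 luminal progenitor genes tested, 6 fell in tamoxifen glands without a tumor against placebo glands with a later tumor, and 3 rose with a later tumor. Over all genes 2.4% fell in the first of these comparisons and 0.2% rose in the second. By outcome, Csn3, the kappa-casein gene, rose by 1.51 (limma adjusted p = 0.0246), Lcn2, a siderophore-binding protein, by 1.36 (0.0431), and Elf5, an alveolar transcription factor, by 1.71 (0.0456). Of 7 mature luminal genes, 2 fell in the 7 against 7 comparison (2.4% of all genes). They were Gata3, a transcription factor of luminal cells (-0.83, adjusted p = 0.0202), and Wnt4, a ligand downstream of progesterone (-0.55, 0.0439). Foxa1, a partner of the oestrogen receptor, differed by -0.62 (0.0701). No mature luminal gene passed for later outcome, and 3 were higher at an unadjusted p under 0.05 (6.79% of all genes). Without placebo 7, 8 and 9, 3 of the 8 progenitor genes and none of the mature luminal genes passed in the 7 against 7 comparison (Gata3 -0.60, 0.172), and no gene of either list passed by outcome.

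Of 8 milk and alveolar genes, 4 rose with a later tumor (0.2% of all genes) and 5 fell in tamoxifen glands without a tumor (2.4%). Csn1s1, an alpha-casein gene, differed by 4.15 (limma adjusted p = 0.0123) and -5.15 (2.67e-05) in these comparisons. In the 17 glands without placebo 7, 8 and 9, 1 rose and 5 fell.

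The keratins of the basal layer did not pass. Krt5, the type II basal keratin, differed by 0.60 for later outcome (limma adjusted p = 0.177) and by -0.64 between tamoxifen glands without a tumor and placebo glands with a later tumor (0.163). Krt14, its type I partner, differed by 0.58 (0.232) and -0.51 (0.298). Both basal keratins differed by 0.26 for later outcome without placebo 7, 8 and 9, and in the 7 against 7 comparison Krt5 then differed by -0.14 and Krt14 by -0.03. Of 9 basal and myoepithelial genes, 2 fell in the 7 against 7 comparison, Cnn1 (calponin, -0.65, adjusted p = 0.0262) and Myh11 (smooth muscle myosin, -0.41, 0.0372). Over all genes 2.4% fell in that comparison. At an unadjusted p under 0.05, 4 of the 9 were lower there and 2 higher, against 9.34% and 11% of all genes. The differences of the 9 ran between -0.68 and 0.76. None of the 9 passed for later outcome by limma. At an unadjusted p under 0.05, 6 were higher and 1 lower by outcome, against 6.79% and 9.69% of all genes. Neither Cnn1 nor Myh11 passed without placebo 7, 8 and 9. Among all 44 other keratin genes on the array, 21 were tested, none passed for later outcome by limma and their median difference was 0.03. At an unadjusted p under 0.05, 3 of the 21 were higher and 2 lower, against 6.79% and 9.69% of all genes. Krt4, a keratin of stratified mucosa, was the 1 keratin that rose in tamoxifen glands without a tumor (0.56, adjusted p = 0.00699), and it did not pass without placebo 7, 8 and 9 (0.56, 0.0616). Of all genes 2.23% rose in that comparison with all glands. Krt15, a type I keratin of basal cells in stratified epithelia, differed by -0.93 there (0.125) and by -0.28 without those 3 glands.

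Proteins that bind or anchor keratin filaments were read as a further list. Of 13 tested filament partners, none passed for later outcome or in the 7 against 7 comparison by limma. At an unadjusted p under 0.05, 3 were higher for later outcome, where 6.79% of all genes were. In the 7 against 7 comparison 3 were lower and 1 higher by that rule, against 9.34% and 11% of all genes. Their median difference was 0.08 for later outcome. Dsp, the desmoplakin gene, differed by 0.62 (adjusted p = 0.15), Dsg2, a desmosomal cadherin, by 0.45 (0.18) and Jup, plakoglobin, by 0.05 (0.79). Dsp differed by 0.43, Dsg2 by 0.21 and Jup by -0.06 without placebo 7, 8 and 9, and no partner passed.

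Markers of other tissues in the sample also differed between groups. Of 6 skeletal muscle genes, 4 rose in tamoxifen glands without a tumor against placebo glands with a later tumor (2.23% of all genes). Acta1, skeletal actin, was 1 of the 4 (3.26, limma adjusted p = 0.0141). The centred mean of these 6 ran between -0.17 and 4.26 in tamoxifen glands without a tumor and between -1.99 and 0.79 in placebo glands with a later tumor. Of 6 T and B cell genes, 3 rose there, among them Cd3e of the T cell receptor complex (0.46, 0.00506), with a centred mean of -0.37 to 0.80 and -0.60 to -0.13 in the same groups. None of 5 white adipocyte genes, 4 endothelial genes, 4 skin genes or the 1 mesothelial gene tested passed there or for later outcome by limma. At an unadjusted p under 0.05, 1 adipocyte and 1 endothelial gene were higher there (11% of all genes). By that rule 1 endothelial gene was lower by outcome (9.69% of all genes). Adipoq, adiponectin, differed by 0.05 (0.678) in tamoxifen glands without a tumor. Without placebo 7, 8 and 9, 1 muscle gene, Acta1, and no T or B cell gene passed. By treatment no gene of either list passed by limma, with median differences of 2.19 for muscle genes and 0.37 for T and B cell genes. At an unadjusted p under 0.05 all 6 muscle genes and 5 of 6 T and B cell genes were higher in tamoxifen glands (6.95% of all genes). By outcome none passed either, with medians of -0.38 for T and B cell genes and -1.16 for muscle genes. At an unadjusted p under 0.05, 5 of 6 T and B cell genes and 1 muscle gene were lower with a later tumor (9.69% of all genes). The part of muscle and lymphoid RNA in the keratin differences was not tested.

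Outside the keratins, the genes most like the mean of the 4 members over the 20 glands were Tmem30b (r = 0.932), Epcam (0.895), Gata3 (0.880), Plet1 (0.878), Fhod3 (0.878), Csn3 (0.877), Foxa1 (0.863) and Kcnk1 (0.856). They were chosen for their r, so the values are a description. With placebo 7, 8 and 9 left out, r for these 8 genes ran between 0.846 for Fhod3 and 0.943 for Kcnk1. After each group's mean was taken off, r ran between 0.688 for Kcnk1 and 0.853 for Tmem30b. With all keratins left out of the search, the gene closest to a single member was Mpzl3 for Krt7 (r = 0.826), Kcnk1 for Krt8 (0.908), Tmem30b for Krt18 (0.928) and Mlph for Krt19 (0.899). Tmem30b is a subunit of lipid flippases, Plet1 a surface protein of luminal progenitors and Mlph an adaptor of organelle transport.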

How the data were processed

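Expression was measured in 20 glands on 1 microarray each, in 45101 probe sets. The deposited values are log2 values made by the authors with RMA, as the submitters' processing notes name it. Which program ran it, and any batch step, is not stated by labels or files. They ran between 3.38 and 14.55, with array medians of 6.82 to 6.89. Of the probe sets, 34958 had 1 gene symbol (34754 matched by Entrez ID), 932 several and 9211 none, and only those with 1 symbol were named. Each of 18194 genes took its probe set with the highest mean. Genes above the overall median of 6.85 on at least 3 arrays were tested, 12499 in all.

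Groups came from the sample titles. Outcome, treatment and 4-group models were fitted across all tested genes with limma 3.58.1 (R 4.3.3), a Benjamini-Hochberg adjusted p under 0.05 being called. The fits were tested on simulated data with known changes, in which genes were independent and varied less than in the glands. False calls among genes that vary together were therefore not tested. Differences between members used two-sided permutation tests, with 100000 resamples or, for 7 against 7 and for groups under 10, exact enumeration, adjusted over 18 tests (scipy 1.17.1, pandas 2.3.3, Python 3.11.15). The text names the members, up to 4 genes per list with the smallest limma p by outcome, Krt5, Krt14, Epcam, Cdh1, Dsp and Jup, and the genes most like the members. Muscle, lymphoid, adipocyte, endothelial, skin and mesothelial lists were used as markers of other cells, and the milk list as genes of alveolar luminal cells. The members, the lists and the tests were chosen with earlier results of these data known. Alternatives were the array median, filters, the rule for probe sets, the limma trend, blocks, covariates and left-out animals. Promoters came from a RefSeq table of GRCm38.p6, which matched 3 of the 4 members. Nothing in the labels says more of the replicates than that they are different animals.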

Additional observations from a re-analysis of the deposited data

Results flagged for a closer look

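In 4 of 24 sets of glands tested, 1 gland stood far from the others by Dixon's criterion. Chance flags about 1 in 20 independent sets, but these sets share glands and their genes are correlated. An excess over chance was therefore not tested, and every flag was of placebo 5 or placebo 4. Among the 10 placebo glands, placebo 5, which had no tumor, was low for Krt7 at 7.51, with the nearest gland at 8.26, and for Krt18 at 9.44, with the nearest at 10.56. Among the 7 placebo glands with a later tumor, placebo 4 was low for Krt18 at 10.75, with the nearest at 11.27, and for Krt19 at 9.80, with the nearest at 10.68.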

How the results depend on the processing

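Over the alternatives other than left-out animals, 351 member differences kept their direction and their side of the threshold, 15 no longer passed, 3 newly passed and 7 changed sign, and all 36 member correlations and 29 differences between members kept theirs. Most of the 351 had not passed in the main fits either, where only 3 member differences passed, all in the 7 against 7 comparison. All 15 losses were in that comparison, where 37 differences, those of Krt7 among them, stayed the same. The cause of each change was not tested. Between tamoxifen glands without a tumor and placebo glands with a later tumor, Krt8 no longer passed with array medians subtracted (-0.93), with no filter, with every probe set or with only these 2 groups (-0.94 in each), with the replicate block (-1.15) or within numbers 6 to 10 (-1.38). Krt8, Krt18 and Krt19 did not pass without placebo 7, 8 and 9 (-0.59, -0.80, -1.24), with the epithelial mean as a covariate (-0.029, -0.40, -0.76) or within numbers 1 to 5 (-0.35, -0.68, -1.01). Genes called there, 579, became 1647 with the replicate block, 141 without placebo 7, 8 and 9, 233 with only the 2 groups, 11 with the covariate, 15 within numbers 1 to 5 and 14 within 6 to 10. By outcome, Krt19 passed with the replicate block (1.33), a fit in which outcome cannot be told apart from treatment, and within numbers 6 to 10 Krt18 (1.02) and Krt19 (1.39) passed. Genes called by outcome, 29, became 11 with array medians subtracted, 14 with no filter, 15 with every probe set, 1426 with the replicate block, 45 with a block of the runs of numbers, 8 without placebo 7, 8 and 9, 0 with treatment as a covariate, 1 with the epithelial covariate, 2 within numbers 1 to 5 and 10 within 6 to 10. By treatment, Krt7 and Krt8 changed sign with the epithelial covariate (0.11 and 0.16) and within numbers 1 to 5 (0.0045 and 0.023). The 1 gene called by treatment became 2 with no filter, 235 with the replicate block and 0 with mean probe sets, without placebo 7, 8 and 9, with outcome as a covariate and within each run of numbers. Genes called by outcome in placebo, 1, became 2 with mean probe sets, 602 with the replicate block and 0 without placebo 7, 8 and 9, with only the 2 groups or with the epithelial covariate. In tamoxifen, 1 became 5 with the replicate block, 0 without placebo 7, 8 and 9 or with only the 2 groups, and 2 with the epithelial covariate. By treatment in animals without tumors, 8 became 3 with a stricter filter or the replicate block, 14 without placebo 7, 8 and 9 and 13 with the epithelial covariate. The interaction called 2 with the replicate block, and its Krt19 value changed sign with the block of runs (0.024), without placebo 7, 8 and 9 (0.053) and with the epithelial covariate (0.45). Krt8 minus Krt18 changed sign with mean probe sets in the 7 against 7 comparison (-0.0073) and without placebo 7, 8 and 9 by outcome (-0.092). Without those 3 glands, Krt7 minus Krt18 by treatment (0.26) and Krt7 minus Krt8 in the 7 against 7 comparison (0.32) no longer passed, and Krt8 minus Krt18 (0.19) and Krt8 minus Krt19 (0.59) by treatment and Krt8 minus Krt19 in the 7 against 7 comparison (0.65) did.

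With 1 animal left out at a time, 608 of the member differences kept direction and side, 13 no longer passed, 7 newly passed and 12 changed sign. Most of the 608 had not passed in the main fits either. All 13 losses were of Krt8 in the 7 against 7 comparison, out of 20 fits. Outcome gave 0.71 to 0.90 for Krt18, 0.93 to 1.13 for Krt19 and 1 to 118 genes, and treatment gave 0 to 110 genes. The 7 against 7 comparison gave -1.07 to -0.81 for Krt8 and 295 to 846 genes. Outcome in placebo gave 0 to 60 genes, outcome in tamoxifen -0.19 to 0.032 for Krt7 and 0 to 7 genes, and treatment in animals with tumors 0 to 1 genes. Treatment in animals without tumors gave -0.039 to 0.64 for Krt8, -0.27 to 0.36 for Krt18 and 2 to 17 genes, and the interaction gave -0.34 to 0.32 for Krt19 and 0 to 3 genes.

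Deviations of same-numbered glands correlated at -0.10 to 0.59 by treatment and -0.17 to 0.33 by outcome, and 4 of 10 were over 0.1 in each. Glands with different numbers were not correlated in the same way, so whether the replicate numbers pair the samples was not tested. By outcome the replicate block rests on numbers 4, 7, 8 and 9 alone, and in each the tumor gland is placebo and the gland without a tumor tamoxifen. In that fit outcome and treatment cannot be told apart, and 3 of the 4 pairs hold placebo 7, 8 or 9, so its values (1.33 for Krt19 and 1426 genes) are not values of outcome alone. The number of arrays, with 3 in the smaller groups, limits every interval.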
